A study of Mus musculus with 9 samples.

Results

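Growth factor receptor tyrosine kinases are membrane receptors that bind a secreted growth factor on the outside of the cell and carry a kinase on the inside. The 10 receptor genes described here are Pdgfra, Pdgfrb, Egfr, Erbb2, Erbb3, Erbb4, Igf1r, Ntrk2, Met and Kit. They were taken by name, 10 of 21887 protein-coding genes, and each was examined over its mm10 RefSeq gene body plus 50 kb on each side. Within these windows 2 targets mapped by chromatin immunoprecipitation and sequencing (ChIP-seq) were read from peak lists. The first is H3K27ac, a histone acetylation that marks promoters and enhancers in use, and the second is SOX6, a transcription factor of the oligodendrocyte lineage. H3K27ac was mapped in O1-positive oligodendrocytes (OL) of the mouse lines 129O1 and EpiSC5 and in oligodendrocyte progenitor cells (OPC) of the same lines, giving 4 lists. SOX6 was mapped in OL of EpiSC5 and in OPC of each line, giving 3 lists.

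All cells were made in culture from epiblast stem cells of EpiSC5 and 129O1, whose source strains the labels name as 129SvEv and 129S1/SvImJ, in that order, and no genotype change or drug is given for any group. The OL were intermediate oligodendrocytes purified by the surface lipid antigen O1. The OPC behind both states were made without SHH, sorted by CD140a, which is the protein of Pdgfra itself, and by NG2, and then expanded. OPC medium held 20 ng/mL of PDGFA, a ligand of that receptor, and 20 ng/mL of bFGF. Acetylation at Pdgfra in OPC is therefore not independent of how those cells were chosen and grown. No amount of either factor is given for OL. State and any difference in medium cannot be told apart in the OL against OPC comparisons below. Each state has 1 list per line, so the 2 lines are the only replicates. The p-values below combine the disagreement of the lines at a gene (1 residual degree of freedom) with a spread estimated from all genes tested (prior 7.11). They therefore rest mostly on the spread at other genes. The smallest p that an exact test of 2 lists against 2 allows is 0.33.

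In this lineage PDGF-AA acting on PDGFRA keeps progenitors dividing, and the receptor is lost as cells mature. IGF1R carries survival and growth signals in progenitors and in myelinating cells, and neuregulins act on the ErbB receptors ERBB3 and ERBB4, which pair with ERBB2. NTRK2 (TrkB) binds BDNF, MET binds hepatocyte growth factor and KIT binds stem cell factor. PDGFRB is best known from pericytes, the cells that wrap small blood vessels.

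The H3K27ac lists held 27721 to 33738 peaks covering 37.2 to 50.9 Mb, and the SOX6 lists held 3893 to 22876 peaks covering 1.18 to 8.11 Mb. No counts come with the lists, so library depth is unknown. The oligodendrocyte markers matched the labels: of 12, 9 were wider and 0 narrower in H3K27ac in OL than in OPC, with a median log2 change of 1.26. The OPC markers did so only in part: of 10, Pdgfra among them, 4 were narrower, 1 was wider and 5 were not called. The median change over all genes tested was -0.21. Over all genes tested 14.6% were wider and 22.5% narrower. Markers of other cell types held H3K27ac too: 2 of 8 astrocyte markers tested were wider and 3 narrower, 0 and 2 of 6 neuron markers, 2 and 0 of 5 microglia markers, 2 and 0 of 6 pericyte and vascular markers, 1 and 1 of 4 pluripotency markers, and 2 and 1 of 5 Schwann cell and neural crest markers. Summed over the gene bodies, the astrocyte list held 14.0 to 26.2 kb in OL and 19.02 to 23.5 kb in OPC, and the pluripotency list 0.265 to 1.07 kb in OL and 1.06 to 1.57 kb in OPC. The part of such cells in the values below was not tested. In such bulk samples, weaker acetylation in every cell and acetylation in fewer cells cannot be told apart.

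H3K27ac breadth, the length of a window covered by peaks, was scaled so that every list had the same total, taken as log2(kb + 1) and compared between OL and OPC with limma. A gene was called wider or narrower in OL at a Benjamini-Hochberg adjusted p under 0.05 over all 16275 genes tested with the same sign in both lines. By that rule 7 of the 10 receptor genes were called, against 37.1% of all genes tested. Of these, 2 were wider in OL, Met and Pdgfrb, where 14.6% of all genes were. The other 5, Pdgfra, Egfr, Ntrk2, Kit and Erbb3, were narrower in OL, where 22.5% of all genes were. Erbb2, Erbb4 and Igf1r did not pass. All 10 receptor genes passed the filter of a mean of at least 1 kb. The median log2 change of the 10 was -0.48. Scaled breadth did not overlap between OL and OPC in 8 of the 10, against 73.5% of all genes tested. With either OPC list left out no gene in the genome was called. Every fit with a list left out, here and below, also lacked the cell line term and the same-sign rule. The effect of the missing list alone was therefore not tested. Without scaling, 3094 genes were wider and 2998 narrower, where scaled breadth gave 2383 wider and 3659 narrower.

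**Figure D1:**
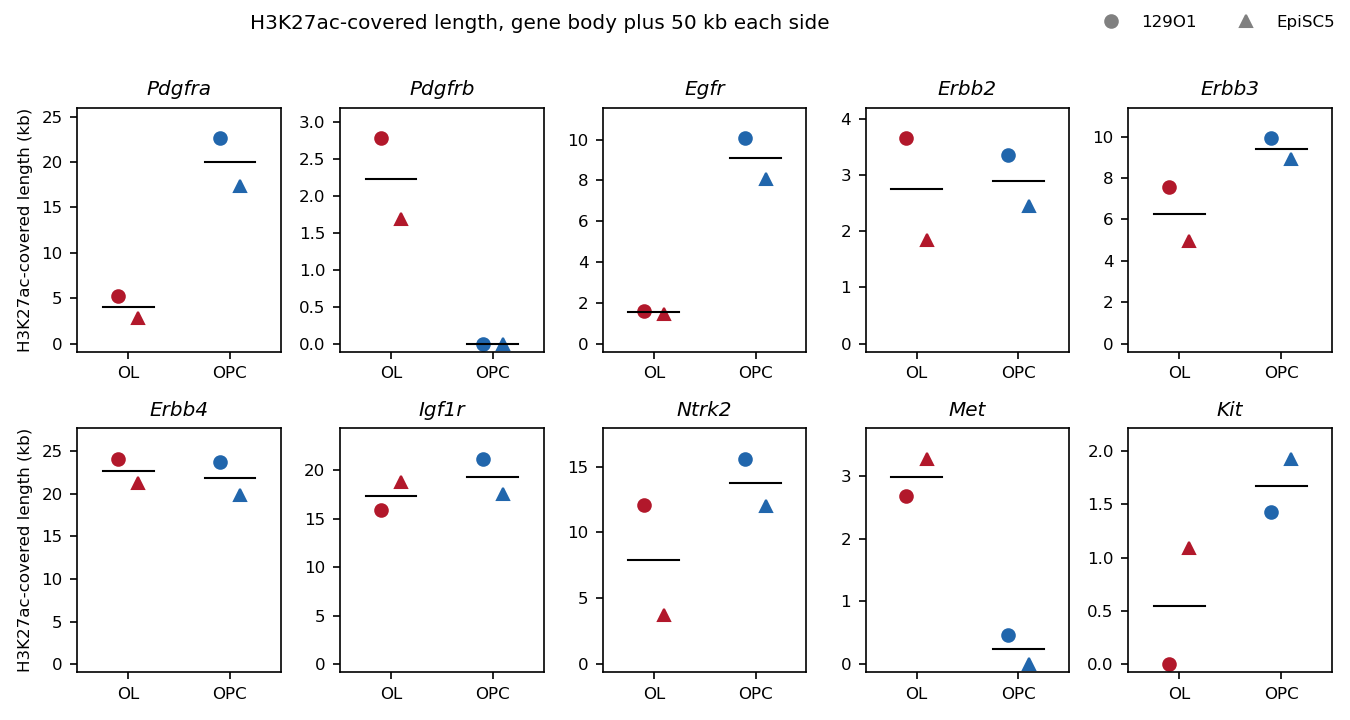
H3K27ac-covered length in kb, before scaling, in the window of each receptor gene. Circles are 129O1, triangles EpiSC5, red OL, blue OPC, bars the mean of 2 lists, and each panel has its own axis. Pdgfra and Egfr lie far lower in OL than in OPC, Met and Pdgfrb lie higher in OL, and the states overlap at Erbb2, Erbb4 and Igf1r and, by a narrow margin, at Ntrk2.

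**Figure D2:**
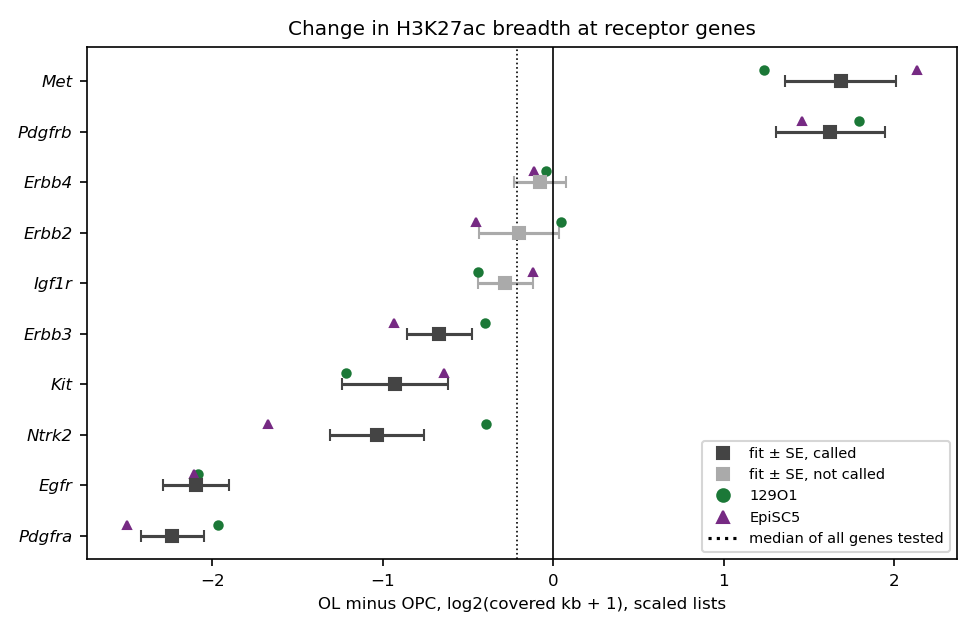
OL minus OPC change in scaled H3K27ac breadth, log2(kb + 1), for the 10 receptor genes. Squares show the limma estimate with its SE, dark where called, small symbols show each line, and the dotted line is the median of all genes tested (-0.21). Pdgfra (-2.23) and Egfr (-2.10) stand at the low end and Met (1.68) and Pdgfrb (1.62) at the high end.

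The receptor that the progenitors were sorted by lost most of its acetylated length. Pdgfra (chromosome 5, 75151322 to 75198206) held 5.21 kb of H3K27ac in OL of 129O1 and 2.78 kb in OL of EpiSC5, against 22.6 kb in OPC of 129O1 and 17.3 kb in OPC of EpiSC5. Both OL lists were below both OPC lists. Scaled breadth fell by 2.23 on the log2 scale (SE 0.19, limma, adjusted p = 0.000462). The gene body alone held 1.77 and 1.16 kb in 129O1 and EpiSC5 OL, against 13.2 and 10.8 kb in OPC.

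The acetylated elements of Pdgfra that both states shared were shorter in OL. Of 7 merged H3K27ac regions in the window, 0 were in both OPC lists and in no OL list, and 3 were in all 4 lists. The domain that covered the start in OPC held a 422 bp peak 3350 bp from the start in OL of 129O1 and no peak in OL of EpiSC5, against peaks over the start of 6902 bp in OPC of 129O1 and 5998 bp in OPC of EpiSC5. The next domain, centred 10.9 kb into the gene, covered 1.35 and 1.16 kb in 129O1 and EpiSC5 OL, against 5.46 and 5.21 kb in OPC. An element past the end of the gene, chr5:75221194-75225889, centred 71.3 kb from the start, covered 2.66 and 1.23 kb in 129O1 and EpiSC5 OL, against 4.39 and 4.22 kb in OPC. The authors' −log10 q of that element was 9.54 and 4.79 in OL and 136 and 68.4 in OPC, which placed it in the top 55.0% and 84.4% of the OL lists and in the top 1.58% and 3.94% of the OPC lists. It was the highest-ranked H3K27ac peak of the window in each OPC list.

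The start of Pdgfra lay inside an acetylated domain in OPC alone, and that of Met inside peaks of both OL lists, so their promoters are printed first, followed by those of Egfr and Kit, whose acetylation in OPC began just downstream. Each is the 250 bases before the RefSeq start (GRCm38.p6, plus strand): chr5:75152001-75152250 for Pdgfra, chr6:17463707-17463956 for Met, chr11:16751953-16752202 for Egfr and chr5:75574737-75574986 for Kit. A start here is a listed transcript start, and all distances from a start use it. At Pdgfra, Met and Erbb4 it lies inside the gene body as given, so the bases printed for these genes lie in the body too. Capitals mark bases inside a peak of both OPC lists for Pdgfra, Egfr and Kit and of both OL lists for Met. No base of the Pdgfra, Egfr or Kit sequence lay inside both OL lists, and none of the Met sequence inside both OPC lists. The Met sequence did lie inside a peak of OPC of 129O1, while OPC of EpiSC5 had none there.
Pdgfra: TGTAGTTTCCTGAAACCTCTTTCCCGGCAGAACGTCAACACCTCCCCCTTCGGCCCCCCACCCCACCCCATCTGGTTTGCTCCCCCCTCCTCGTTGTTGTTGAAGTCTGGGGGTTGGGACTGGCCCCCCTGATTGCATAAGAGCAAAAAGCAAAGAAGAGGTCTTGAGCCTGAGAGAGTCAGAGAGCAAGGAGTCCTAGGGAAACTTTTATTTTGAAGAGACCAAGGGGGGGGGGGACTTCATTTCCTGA
Met: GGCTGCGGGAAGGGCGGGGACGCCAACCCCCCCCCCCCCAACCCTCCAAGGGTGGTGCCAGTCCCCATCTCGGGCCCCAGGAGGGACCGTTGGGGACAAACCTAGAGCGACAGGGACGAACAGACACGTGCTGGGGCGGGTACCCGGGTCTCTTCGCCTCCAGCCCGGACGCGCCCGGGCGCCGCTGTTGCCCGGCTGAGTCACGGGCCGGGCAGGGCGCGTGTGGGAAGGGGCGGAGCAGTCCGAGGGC
Egfr: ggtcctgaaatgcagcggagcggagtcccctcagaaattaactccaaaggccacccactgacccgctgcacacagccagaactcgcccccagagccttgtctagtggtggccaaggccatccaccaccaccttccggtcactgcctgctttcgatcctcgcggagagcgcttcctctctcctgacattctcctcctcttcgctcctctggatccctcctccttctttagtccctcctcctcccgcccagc
Kit: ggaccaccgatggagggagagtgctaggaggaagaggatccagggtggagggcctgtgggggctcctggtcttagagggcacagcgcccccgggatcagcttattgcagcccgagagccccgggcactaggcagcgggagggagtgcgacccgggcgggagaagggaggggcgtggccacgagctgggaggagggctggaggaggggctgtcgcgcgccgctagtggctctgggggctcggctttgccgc

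Kit encodes the stem cell factor receptor, a structural relative of PDGFRA, and lies further along chromosome 5 (75574987 to 75656722). Its window held no H3K27ac peak in OL of 129O1 and 1.09 kb in OL of EpiSC5, against 1.43 kb in OPC of 129O1 and 1.93 kb in OPC of EpiSC5. The gene body held 0 kb in both OL lists, and 1.43 and 1.68 kb in 129O1 and EpiSC5 OPC, all in a region at the start that only the OPC lists held. The EpiSC5 coverage in OL came from a separate region centred 87.1 kb from the start. The fall of 0.93 on the log2 scale (SE 0.31, limma, adjusted p = 0.0467) just passed the threshold and missed it with each of the 4 lists left out in turn (adjusted p from 0.0538 to 0.473), without scaling (adjusted p = 0.0532), with equal numbers of peaks (0.0552), with a pseudocount of 0.25 kb (0.0798) and without the cell line term (0.139).

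The window of Pdgfrb (chromosome 18, 61045127 to 61085067) held 2.78 and 1.68 kb of H3K27ac in OL of 129O1 and EpiSC5 and none in OPC of either line. The change was 1.62 on the log2 scale (SE 0.32, limma, adjusted p = 0.00759). None of this lay in Pdgfrb: its body held no peak in any of the 4 lists, and both OL regions lay in the body of the neighbouring Csf1r, the colony stimulating factor 1 receptor gene, which is itself a microglia marker. Beside it, the summed window coverage of 7 microglia markers, Csf1r among them, was 28.0 to 35.5 kb in OL and 21.5 to 26.2 kb in OPC. Of those markers 5 were tested, 2 were wider (Csf1r and Cx3cr1) and 0 narrower, and the gene bodies of Aif1, Cx3cr1 and Itgam held none in any list. The summed body coverage of the microglia list was 2.29 to 3.59 kb in OL and 2.50 to 2.67 kb in OPC. Of 10 pericyte and vascular markers, Pdgfrb among them, 7 had no peak in their bodies in any list; 6 were tested, 2 were wider and 0 narrower, and their summed window coverage was 21.4 to 30.1 kb in OL and 18.8 to 26.4 kb in OPC. The part of other cells in the acetylation at Csf1r was not tested. The window of Pdgfrb had 5 other protein-coding genes, and with 10 kb on each side it fell below the filter.

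**Figure D3:**
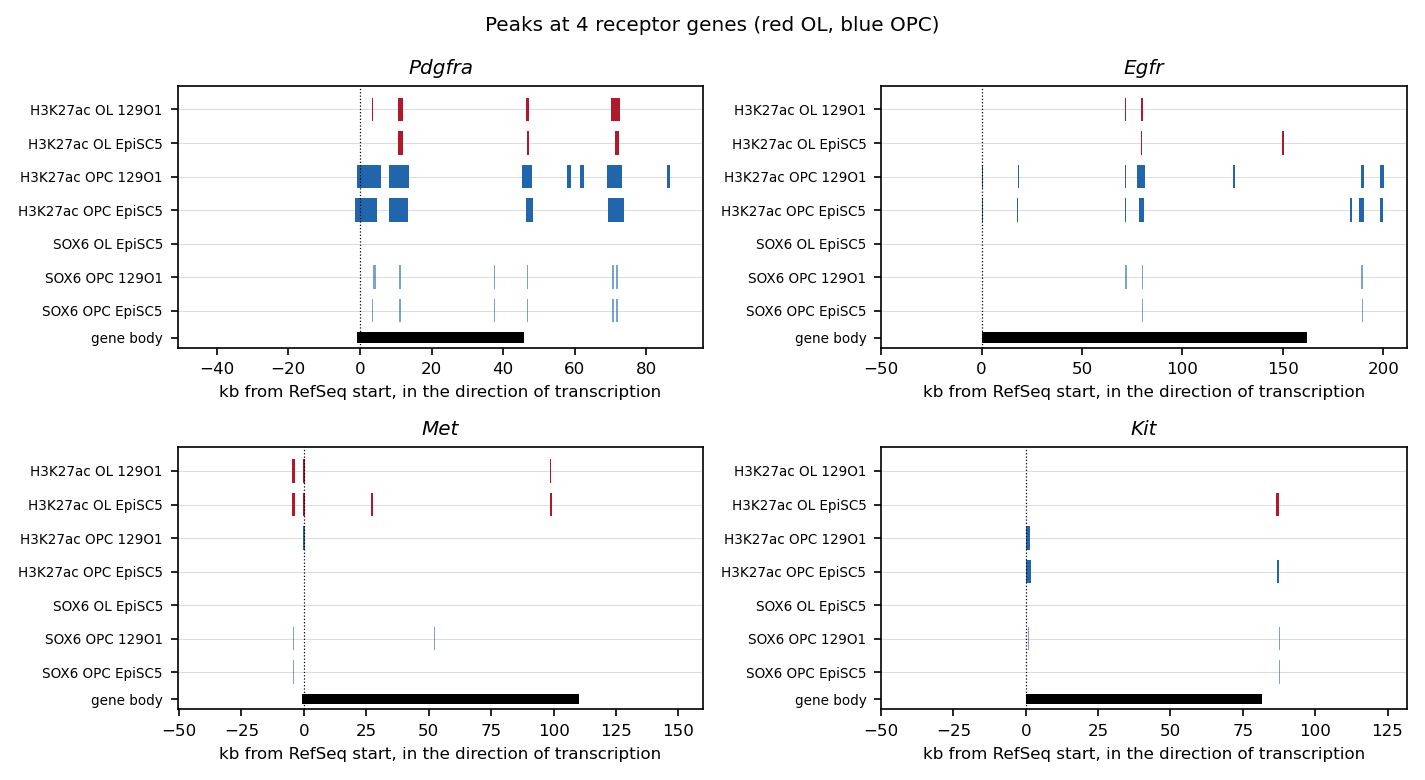
Peaks of each list at Pdgfra, Egfr, Met and Kit, placed by distance in kb from the RefSeq start in the direction of transcription. Red bars are OL and blue bars OPC, with H3K27ac in the upper 4 rows, SOX6 in the lower 3 and the gene body in black; narrow peaks are drawn at a minimum width. At Pdgfra the H3K27ac bars are narrower in OL than in OPC at the same places, while Egfr, Met and Kit each have peaks that stand in 1 state only.

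Among the ErbB receptors Egfr changed most. Egfr (chromosome 11, 16752203 to 16913907), the receptor of EGF and TGF-alpha, held 1.62 and 1.45 kb of H3K27ac in 129O1 and EpiSC5 OL, against 10.1 and 8.09 kb in OPC. Both OL lists were below both OPC lists. Breadth fell by 2.10 on the log2 scale (SE 0.19, limma, adjusted p = 0.000544), and the fall was 2.08 in 129O1 and 2.11 in EpiSC5. The gene body held 1.62 and 1.45 kb in 129O1 and EpiSC5 OL, against 6.54 and 4.05 kb in OPC. With the body alone the change was smaller, -1.385 (limma, adjusted p = 0.00924). Of its 9 regions, 4 were in both OPC lists and no OL list and 0 in both OL lists and no OPC list. The 4 lay at the start (centre 0.385 kb), at 18 kb, and past the end at 189 kb and 199 kb, the last of them overlapping the gene Fbxo48. The region at 18 kb ranked near the bottom of both OPC lists, with an authors' −log10 q of 3.07 in 129O1 and 3.61 in EpiSC5. The element at 79.3 kb, inside the gene, was in all 4 lists and covered 1.10 and 0.679 kb in 129O1 and EpiSC5 OL, against 3.87 and 2.38 kb in OPC.

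Erbb2 (chromosome 11, 98412484 to 98437716), the co-receptor that binds no ligand of its own, showed no change that passed. Its window held 3.66 and 1.84 kb in 129O1 and EpiSC5 OL, against 3.35 and 2.46 kb in OPC, and the states overlapped (log2 change -0.20, SE 0.23, limma, adjusted p = 0.505). The lines moved in opposite directions, with a change of 0.05 in 129O1 and -0.45 in EpiSC5. Inside the gene the direction was the reverse. The body held 2.16 and 1.23 kb in 129O1 and EpiSC5 OL, against 0.621 and 0.380 kb in OPC, a change of 0.77 with the body alone (SE 0.18, limma, adjusted p = 0.0349). An intragenic region centred 18.8 kb from the start was in both OL lists and no OPC list. Most of the coverage outside the body lay at the neighbours Pgap3 and Mien1, and the window had 7 other protein-coding genes. The remainder was a 460 bp peak centred 3.45 kb before the start in OPC of EpiSC5 and the part of the 129O1 start peaks that lay before the gene.

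Erbb3 (chromosome 10, 128567523 to 128589635), the neuregulin receptor with little kinase activity of its own, held almost no acetylation in its own body. The body held 0 kb in both OL lists and in OPC of 129O1, and 0.247 kb in OPC of EpiSC5. The window held 7.56 and 4.97 kb in 129O1 and EpiSC5 OL, against 9.92 and 8.90 kb in OPC, so both OL lists were lower. The window fell by 0.67 (SE 0.19, limma, adjusted p = 0.0270). Most of the coverage lay at its neighbours: the 4 regions shared by all 4 lists lay at Esyt1, Zc3h10 and Rpl41, Pa2g4 and Rps26. Within each line each of these covered less in OL than in OPC. With 10 kb on each side the change was -0.47 and did not pass (adjusted p = 0.0936), nor did it without OL of EpiSC5 (-0.51, adjusted p = 0.113) or with the higher-scoring 50% of each list (-0.74, adjusted p = 0.0718). A small region just outside the gene, chr10:128590067-128590593, was in both OPC lists and no OL list. It covered 0.527 and 0.395 kb in 129O1 and EpiSC5 OPC, so part of the fall lay there and not at the neighbours.

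Erbb4, the other neuregulin receptor, is the longest of the receptor genes (1077 kb, chromosome 1, 68031884 to 69108576). Its breadth was nearly equal in both states, at 24.1 and 21.3 kb in OL of 129O1 and EpiSC5 and 23.8 and 19.8 kb in OPC (log2 change -0.08, SE 0.15, limma, adjusted p = 0.697). The elements behind that equal total were not the same. Of its 23 regions, 7 were in all 4 lists, 8 were in both OL lists and no OPC list, and 1 was in both OPC lists and no OL list. The 8 regions of OL lay between 48.0 and 641 kb into the gene, and the longest, at 586 kb, covered 1.41 and 2.31 kb in OL of 129O1 and EpiSC5. The peak over the start was 3481 and 3469 bp wide in OL and 4518 and 4315 bp wide in OPC. The OL regions had a modest authors' −log10 q, from 3.95 to 12.3, and with the higher-scoring 50% of each list Erbb4 was called narrower in OL (-1.01, adjusted p = 0.0342).

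**Figure D4:**
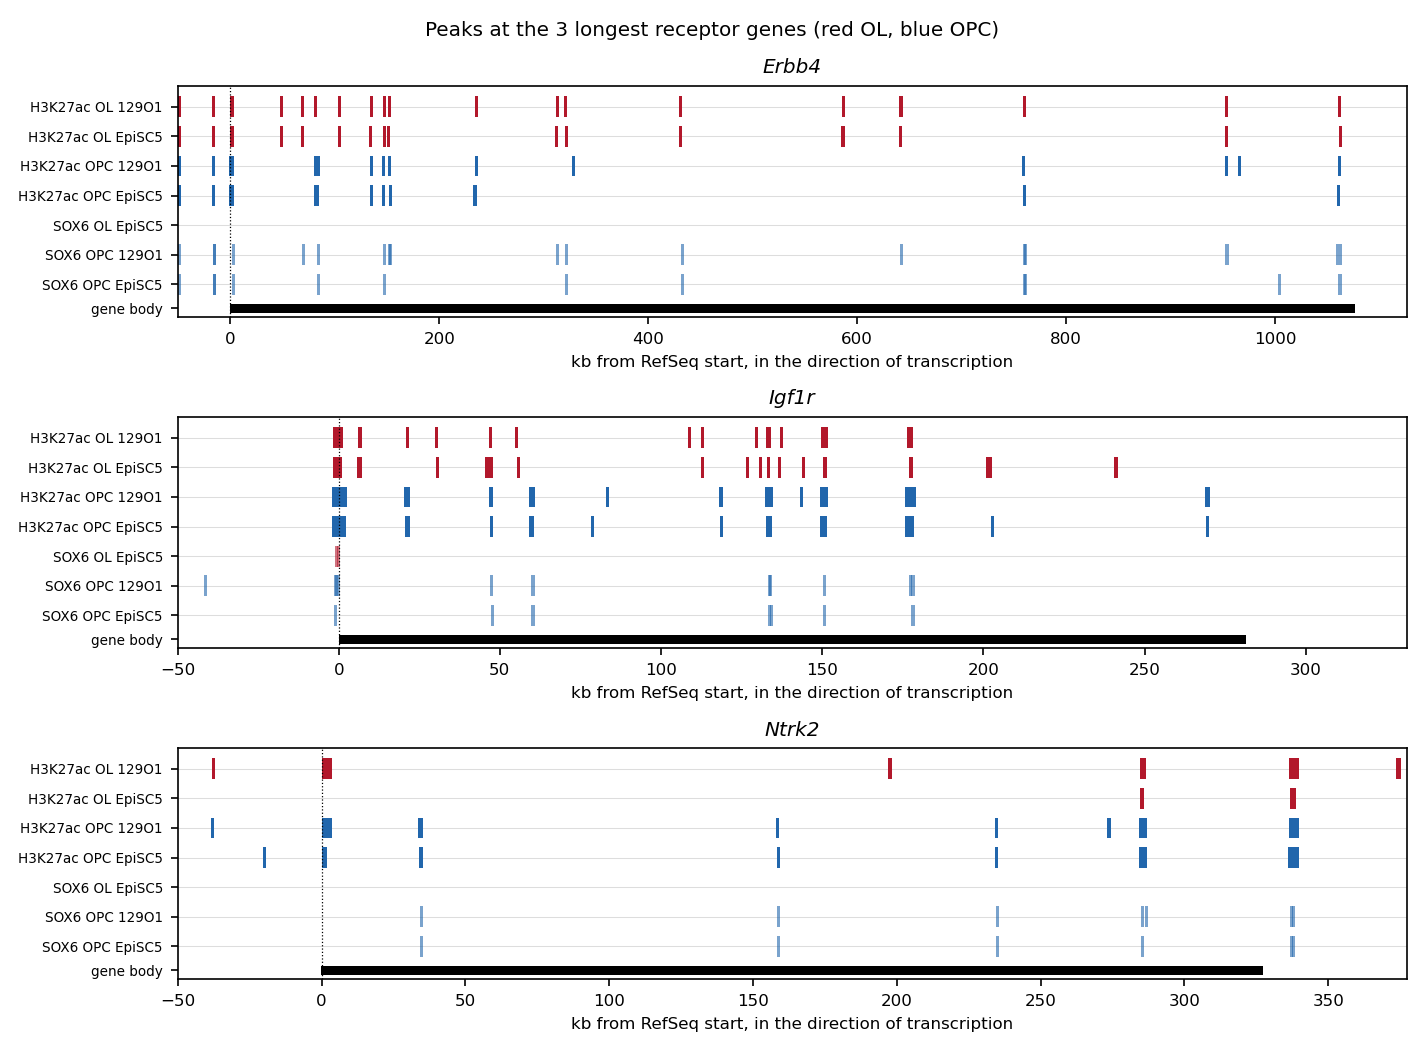
Peaks of each list at the 3 longest receptor genes, Erbb4, Igf1r and Ntrk2, by distance in kb from the RefSeq start. Colours and rows are as in the map of Pdgfra, Egfr, Met and Kit, and narrow peaks are drawn at a minimum width. At Erbb4 8 regions are in both OL lists alone, at Igf1r both states have regions of their own, and at Ntrk2 OL of EpiSC5 has 2 peaks.

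Igf1r (chromosome 7, 67952257 to 68233668), the receptor of IGF1 and IGF2, showed no change in breadth that passed, and its elements differed between the states. It held 16.0 and 18.8 kb in 129O1 and EpiSC5 OL, against 21.2 and 17.5 kb in OPC (log2 change -0.28, SE 0.16, limma, adjusted p = 0.197). Before scaling the states overlapped, and after it the higher OL list (19.5 kb) lay just below the lower OPC list (19.6 kb). Of 24 regions, 5 were in all 4 lists, 5 in both OL lists and no OPC list, and 3 in both OPC lists and no OL list. The peak over the start was 3217 and 2937 bp wide in OL of 129O1 and EpiSC5 and 4662 and 4175 bp wide in OPC. By the authors' −log10 q the peak at 177 kb was in the top 11.5% and 18.7% of the 129O1 and EpiSC5 OL lists, and in the top 0.435% and 6.99% of the OPC lists of those lines.

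Ntrk2 (chromosome 13, 58806472 to 59133970), the BDNF receptor, had values far apart between the 2 OL lists. It held 12.1 kb in OL of 129O1 and 3.73 kb in OL of EpiSC5, against 15.6 kb in OPC of 129O1 and 12.01 kb in OPC of EpiSC5. Before scaling, OL of 129O1 thus lay just above OPC of EpiSC5, and after it the states did not overlap. The fall was 0.40 in 129O1 and 1.67 in EpiSC5, 1.03 in the fit (SE 0.27, limma, adjusted p = 0.0218). Without OL of EpiSC5 it was -0.40 and did not pass (adjusted p = 0.110), nor did it pass without the cell line term (adjusted p = 0.0900). The peak at the start was 3459 bp wide in OL of 129O1 and absent in OL of EpiSC5, against 3612 and 1855 bp in OPC. Regions at 34.5, 159 and 235 kb, inside the gene, were in both OPC lists and no OL list, and the 2 regions in all 4 lists lay near and past the end.

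Met (chromosome 6, 17463349 to 17573980), the hepatocyte growth factor receptor, had wider coverage in OL. Its window held 2.69 and 3.27 kb in 129O1 and EpiSC5 OL, against 0.472 kb in OPC of 129O1 and 0 kb in OPC of EpiSC5. The change was 1.68 (SE 0.32, limma, adjusted p = 0.00703), and without OL of EpiSC5 it just missed the threshold (adjusted p = 0.0521). No other protein-coding gene lies in this window. Regions 4.23 kb before the start and 98.9 kb into the gene were in both OL lists and no OPC list. The peak over the start was 960 and 901 bp wide in 129O1 and EpiSC5 OL, against 472 bp in OPC of 129O1 and none in OPC of EpiSC5.

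Per length, and leaving window size aside, Pdgfra was the most densely acetylated of the 10 in OPC, with 15.4% and 11.8% of its window covered in 129O1 and EpiSC5, and had 3.55% and 1.89% covered in OL. In OL of 129O1 the highest share was at Erbb3, 6.19%, followed by Igf1r with 4.18%. In OL of EpiSC5 the order was reversed, with 4.92% at Igf1r and 4.07% at Erbb3. All of the Erbb3 coverage in OL lay outside that gene's body. Erbb4, with the largest covered length in OL, had 2.04% and 1.81% of its long window covered.

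RefSeq starts were given for 8 of the receptor genes; Pdgfrb and Erbb3 are the others. An H3K27ac peak lay within 1 kb of the start of 5 of the 8 in OL of 129O1 and 3 of the 8 in OL of EpiSC5, against 8 and 7 of the 8 in 129O1 and EpiSC5 OPC. Over all 17492 genes with a start the shares were 50.7% and 43.9% in OL and 53.8% and 52.1% in OPC. Pdgfra, Egfr and Kit had an acetylated start in both OPC lists and neither OL list, Erbb4 and Igf1r had one in all 4 lists, and Erbb2 and Ntrk2 lacked one in OL of EpiSC5 alone. Met lacked one in OPC of EpiSC5 alone.

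Over the 10 windows together there were 93 H3K27ac regions. Of these, 18 (19.4%) were in both OL lists and no OPC list, 13 (14.0%) in both OPC lists and no OL list, and 23 (24.7%) in all 4 lists. Over the genome those classes held 16.7%, 11.1% and 30.1% of regions. Of the 18 in OL alone, 8 lay at Erbb4 and 5 at Igf1r.

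No receptor gene was called between 129O1 and EpiSC5 (limma; adjusted p from 0.514 to 0.971), where 0.0983% of all genes tested were, and 1 receptor gene, Kit, had an unadjusted p under 0.05. With 4 lists a p that misses the threshold does not show that the lines were alike. The largest differences, 129O1 minus EpiSC5, were 0.63 at Ntrk2 (SE 0.27) and -0.81 at Kit (SE 0.31).

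SOX6 lay in the windows of nearly all of the receptor genes in progenitors, though not always in the genes themselves. The bodies of Erbb2 and Pdgfrb held no SOX6 peak in any list, and those of Erbb3, Met and Kit held none in OPC of EpiSC5. The windows held 5 SOX6 peaks in OL of EpiSC5, against 58 in OPC of 129O1 and 40 in OPC of EpiSC5. At least 1 peak was present in both OPC lists at 9 of the 10, where 53.9% of all genes had one; Pdgfrb, with 1 peak in OPC of 129O1, was the exception. Long windows collect more peaks: of 2548 genes with windows of at least 196 kb, the median of the receptor windows, 79.5% had SOX6 in both OPC lists. Only 5 of the receptor genes have windows that long, Egfr, Erbb4, Igf1r, Ntrk2 and Met, and all 5 had SOX6 in both OPC lists. In OL of EpiSC5 3 of the 10 had a peak, Erbb2, Erbb3 and Igf1r, where 29.6% of all genes did. Of the 9 with SOX6 in OPC of EpiSC5, 6 had none in OL of EpiSC5, where the share over all such genes was 57%. The OL list is shorter than both OPC lists, and OL has no second SOX6 list. With the lists cut to the 3893 highest-scoring peaks, 5 receptor genes had SOX6 in both OPC lists (17.6% of all genes), and the windows held 5 peaks in OL of EpiSC5 and 11 in each OPC list.

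**Figure D5:**
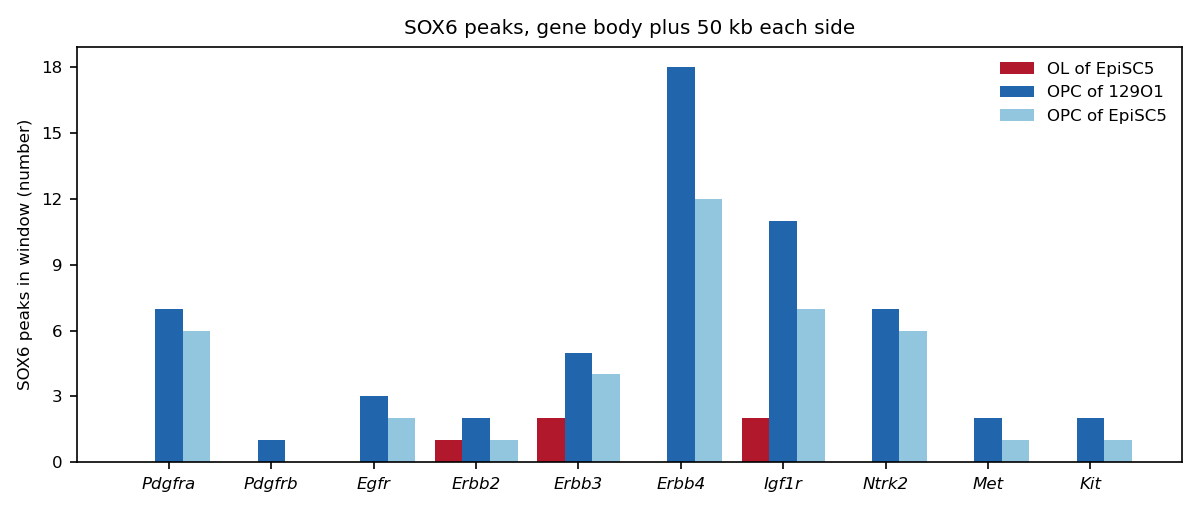
Number of SOX6 peaks in the window of each receptor gene, in OL of EpiSC5 (red), OPC of 129O1 (dark blue) and OPC of EpiSC5 (light blue). The bars count peaks and are not corrected for window length. OL has bars at Erbb2, Erbb3 and Igf1r only, and Erbb4 has the most peaks in OPC.

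Per length Pdgfra was the receptor gene with most SOX6. Its window had no SOX6 peak in OL of EpiSC5, against 7 in OPC of 129O1 and 6 in OPC of EpiSC5, or 0 per Mb in OL and 47.7 and 40.8 per Mb in OPC. The median gene had 9.13 and 6.26 per Mb in the same OPC lists. The highest-ranked of them lay in the downstream element at 71.3 kb, which held 2 SOX6 peaks in each OPC list, with an authors' −log10 q of up to 82.4 in 129O1 and 60.3 in EpiSC5. No SOX6 peak lay within 1 kb of the Pdgfra start; the nearest were 3530 and 3422 bp from it in 129O1 and EpiSC5 OPC.

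The highest-ranked SOX6 peak at any receptor gene lay in Igf1r, in the element centred 133 kb from the start. Its −log10 q was 171 in OPC of 129O1 and 168 in OPC of EpiSC5, in the top 1.72% and 2.02% of those lists. Igf1r had 2 SOX6 peaks in OL of EpiSC5, against 11 in OPC of 129O1 and 7 in OPC of EpiSC5. Both OL peaks lay just before the start, the nearer 309 bp from it, and this was the receptor gene with SOX6 within 1 kb of its start in all 3 lists. The 133 kb element stayed acetylated, with 1.48 and 1.18 kb in OL of 129O1 and EpiSC5 and 2.50 and 1.96 kb in OPC, but held no SOX6 peak in OL.

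Erbb4 had no SOX6 peak in OL, against 18 in OPC of 129O1 and 12 in OPC of EpiSC5, the highest number but not the highest density, at 15.3 and 10.2 per Mb. Ntrk2 had none in OL, against 7 and 6 in 129O1 and EpiSC5 OPC, and each of its 3 regions acetylated in OPC alone held 1 in each OPC list. Egfr had none in OL, against 3 and 2 in OPC, including 1 in each OPC list in its OPC-only region at 189 kb. Erbb3 had 2 in OL of EpiSC5, against 5 and 4 in OPC; both OL peaks lay in the acetylated regions at Zc3h10 and Rps26. Its highest-ranked SOX6 peak, chr10:128592915-128593221 in OPC of 129O1, lay outside every gene body, with a −log10 q of 65.6 in OPC of 129O1 and 52.0 in OPC of EpiSC5. Erbb2 had 1 in OL, against 2 and 1 in OPC, and the shared one lay at Mien1. Kit had none in OL, against 2 and 1 in OPC.

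Met had no SOX6 peak in OL of EpiSC5, against 2 in OPC of 129O1 and 1 in OPC of EpiSC5. The peak shared by both OPC lists lay 4.25 kb before the start in 129O1, inside chr6:17459077-17460377, the region acetylated in both OL lists and in neither OPC list. Its −log10 q was 31.5 in OPC of 129O1 and 18.5 in OPC of EpiSC5. At Erbb4, 1 of the 8 OL-only regions likewise held SOX6 in both OPC lists, at 320 kb. These 2 were the only such cases among the 18 OL-only regions of the receptor windows (11.1%, against 7.79% of such regions over the genome).

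SOX6 in both OPC lists was found at 18 of the 23 regions acetylated in all 4 lists (78.3%, against 41.5% over the genome) and at 6 of the 13 OPC-only regions (46.2%, against 28.5%). Of the SOX6 peaks in the windows, 4 of 5 in OL of EpiSC5 overlapped an H3K27ac peak of the same line and state, against 44 of 58 in OPC of 129O1 (75.9%) and 33 of 40 in OPC of EpiSC5 (82.5%). Over the whole lists the shares were 74.1% in OL of EpiSC5, 69.4% in OPC of 129O1 and 68.0% in OPC of EpiSC5. These shares compare regions of a few genes, which share windows and libraries, and carry no test.

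The promoter windows, 250 bases before to 50 bases after the start, were searched on both strands for AACAAT and ACAAAG, letters that SOX proteins bind, and for the E-box CAGCTG, with no overlap between matches. AACAAT matched at Erbb4 alone, 73 bases before the start (9.05% of 21263 RefSeq promoters hold it). ACAAAG matched at Igf1r alone, 9 bases after the start (16.8% hold it), and CAGCTG matched at none (15.6% hold it). The 250 bases before the Erbb4 start, chr1:69108060-69108309 on the minus strand, are shown because they hold the AACAAT match, in capitals as its reverse complement, inside the start peak of all 4 H3K27ac lists. The nearest SOX6 peaks were 1886 and 1920 bp from that start in 129O1 and EpiSC5 OPC.
Erbb4: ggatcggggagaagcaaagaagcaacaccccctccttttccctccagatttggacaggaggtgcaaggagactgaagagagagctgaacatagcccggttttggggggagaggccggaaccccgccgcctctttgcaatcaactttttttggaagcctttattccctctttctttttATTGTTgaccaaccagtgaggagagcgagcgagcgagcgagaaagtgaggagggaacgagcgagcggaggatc

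The genes around the receptors in their pathway were described from lists chosen with earlier results of these data known. Of 22 growth factor ligand genes 16 were tested, 1 was wider and 8 were narrower in OL, against 14.6% and 22.5% of all genes tested (median log2 change -0.58). The wider one was Igf1, ligand of IGF1R, with 1.58 and 3.30 kb in 129O1 and EpiSC5 OL against 0 and 0.447 kb in OPC (change 1.39, SE 0.30, limma, adjusted p = 0.0100). Most of its OL coverage lay in the flanks. The Igf1 body held 0.525 and 0.361 kb in 129O1 and EpiSC5 OL, against 0 and 0.447 kb in OPC. Among the narrower were Pdgfd, a PDGFRB ligand (-1.46), Bdnf, the NTRK2 ligand (-1.38), and Ereg, an EGFR ligand (-1.01), whose body held no peak in any list. Areg, another EGFR ligand, had the same values as Ereg from the same flanking peaks, so the 8 count that coverage again. Of the 22, Pdgfb, Areg, Btc, Epgn, Igf2, Ntf3, Ntf5 and Hgf, the MET ligand, also had no peak in their bodies.

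Of 32 adaptor and kinase cascade genes tested, 3 were wider and 11 narrower in OL, against 14.6% and 22.5% of all genes tested (median -0.45). The largest changes were at Pik3cb, a PI3-kinase catalytic subunit (-1.59), Ptpn11, the phosphatase SHP2 (1.38), Map2k1, the kinase MEK1 (-1.24), and Rasgrp1, an activator of Ras (-1.20). Ptpn11 held 21.2 and 17.1 kb in 129O1 and EpiSC5 OL, against 6.87 and 5.27 kb in OPC.

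Of 23 inhibitors of these receptors and their pathway, 1 was wider and 11 were narrower in OL, against 14.6% and 22.5% of all genes tested (median -0.40). The Sprouty genes, feedback inhibitors induced by receptor signalling, were among the narrower: Spry4 (-2.90), Spry1 (-1.42) and Spry2 (-0.94). At Spry2 the body held 4.87 and 4.57 kb in 129O1 and EpiSC5 OL, against 4.87 kb in each OPC list, so its fall lay in the flanks. Spry4 held 1.75 kb in OL of 129O1 and 0 kb in OL of EpiSC5, against 12.3 and 8.61 kb in 129O1 and EpiSC5 OPC. The wider one was Ptprj, a receptor-type phosphatase, with 46.9 and 41.8 kb in 129O1 and EpiSC5 OL against 11.7 and 12.2 kb in OPC (change 1.67, SE 0.17, limma, adjusted p = 0.000660).

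Of 39 other receptor tyrosine kinase genes 34 were tested, 8 were wider and 9 narrower in OL, against 14.6% and 22.5% of all genes tested (median -0.11). The largest changes were at Epha5 and Epha3, ephrin receptors (-1.84 and -1.58), Fgfr2, a fibroblast growth factor receptor (1.68), and Flt1, a VEGF receptor (1.60). Fgfr2 held 13.7 and 24.3 kb in 129O1 and EpiSC5 OL, against 4.78 and 4.27 kb in OPC. The window of Flt1 held 2.69 and 1.65 kb in OL of 129O1 and EpiSC5 and none in OPC, with no peak in the gene body.

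The genes whose 4 breadth values were nearest to those of Met, by Euclidean distance over the 4 scaled log2 values, were Pilrb1 and Pilrb2, whose windows gave the same values (distance 0.16), Tspan8 (0.18), Lilra5 (0.22) and Albfm1 (0.26). Nearest to Pdgfra were Dgkg (0.39), Kcnd2 (0.47), Ptprd (0.56), Akap6 (0.63) and Cep41 (0.64). Dgkg held 6.62 and 3.24 kb in 129O1 and EpiSC5 OL, against 19.5 and 17.1 kb in OPC.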

How the data were processed

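The members and all gene lists were chosen with earlier results of these data known. The authors deposited 1 peak list per library, without header. Of the 9 samples, the 2 inputs, titled embryonic stem cells but otherwise labelled OPC, were not analysed here. ChIP used 9 µg of H3K27ac or 15 µg of SOX6 antibody, per the labels' protocols, which name 2 kinds of sequencer without assigning libraries to them. The submitters' processing notes name Trim Galore 0.3.1, Bowtie2 2.3.2, Picard, deepTools, bedtools and mm10; the peak caller is not given in the sources used here. A deposited peak has a score, a fold enrichment (a ratio) and −log10 p and −log10 q values, which are the authors' own and served only for description, ranking and filtering inside 1 list. The running peak numbers skip 6 to 37 values per list; such peaks are not analysed here.

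Only chromosomes 1 to 19, X and Y entered. Gene positions and promoter sequences came from RefSeq (GRCm38.p6, the assembly mm10 names), without exons. Coordinates are 1-based, and a peak was in a window when 1 bp overlapped. H3K27ac-covered length was scaled to equal totals per list, taken as log2(kb + 1), which understates changes at genes with little coverage, and tested with limma 3.58.1 (R 4.3.3; trend; state and cell line as terms; 1 residual degree of freedom, prior 7.11) where the mean reached at least 1 kb. Both states of a line share its cells of origin, which pairs them; the OL and OPC deviations of a line correlated at 0.268 across genes, a value that is the same for both lines by construction. A simulation with the same normal noise for every gene and few genes changed checked that the fit recovers changes of known size. These lists differ from that setting, with 37.1% of genes called, so the simulation does not vouch for the calls. SOX6 was described without a test. Named genes beyond the members are the 4 largest calls of each pathway list, neighbours with part of a window's peaks and the 5 nearest genes by breadth to Met and Pdgfra; list members named for having no peak in their bodies were chosen after their values were seen.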

Additional observations from a re-analysis of the deposited data

Results flagged for a closer look

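The change in H3K27ac breadth at Erbb2, OL minus OPC, had opposite signs in the lines, 0.047 in 129O1 and -0.45 in EpiSC5 on the log2 scale. The difference was not tested, since 4 lists leave no residual degree of freedom for an interaction.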

How the results depend on the processing

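Over the whole table, 2383 genes were wider and 3659 narrower in OL. With 10 kb on each side the counts were 1562 and 2041, with the body alone 1374 and 1014, with the higher-scoring 50% of each list 1154 and 1155, and with no filter 0 and 0 (limma; 5882 genes at an unadjusted p under 0.05). Among the receptor genes, 2 wider and 5 narrower became 1 wider with 10 kb, 1 wider and 3 narrower with the body alone (6 tested), 0 wider with the higher-scoring 50%, 0 wider with a minimum of 3 kb (6 tested), and 0 and 0 with no filter. Without the replicate block (the cell line term), 1886 genes were wider and 2454 narrower, and 3 receptor genes stayed narrower. Ntrk2 and Kit lost their call. Every fit with a list left out lacked that term too, and the same-sign rule. Leaving out each list in turn gave 0 to 1861 genes wider, 0 to 3719 narrower, 0 to 2 receptor genes wider and 0 to 4 narrower. Erbb2 changed sign with 10 kb (0.11), with the body alone (0.77), without OL of EpiSC5 (0.070, the range over lists left out being -0.47 to 0.070) and in 129O1 alone (0.047), and Erbb4 did without scaling (0.058). The other changes in member results were losses or gains of a call with the same sign. Pdgfra and Egfr kept their call except with no filter and without either OPC list. Between lines, 14 genes were wider and 2 narrower in 129O1. The counts were 9 and 2 with 10 kb, 33 and 2 without scaling, 4 and 1 with a pseudocount of 0.25 kb, 9 and 1 with a minimum of 3 kb, and 0 and 0 with the body alone, the higher-scoring 50% or no filter (limma; 638, 737 and 1031 at an unadjusted p under 0.05). Leaving out a list was not run for the line comparison. With as many peaks as the OL list, 5 receptor genes had SOX6 in both OPC lists. Except where a setting drops genes, the cause was not tested. Unknown depth limits every statement on an absent peak.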
